A study of Rattus norvegicus with 6 samples.

Results

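The 43 genes described here carry glucose into the heart cell and through glycolysis, store and release it as glycogen, and bring pyruvate into the mitochondrion and the pyruvate dehydrogenase complex. They were chosen by symbol for their role in these steps, 43 of the 17487 symbols in the table. By step, 4 act in glucose and lactate transport, 20 in glycolysis, 9 in glycogen metabolism and 10 in pyruvate entry. Heart RNA was compared between 3 adult male Wistar rats given doxorubicin, an anthracycline chemotherapy drug that can damage the heart, and 3 given the vehicle. Doxorubicin hydrochloride was injected into the tail vein at 3.75 mg/kg every week for 4 weeks, and the control rats received 0.9% saline in the same way. Wistar rats are outbred, the libraries of a group are labelled as biological replicates, and the labels do not say which part of the heart was taken, when after the last injection, or whether the rats had been fed.

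The adult heart takes most of its energy from fatty acids and keeps glucose as a second fuel. Glucose enters through carriers of the Slc2a family, is phosphorylated by hexokinase, and is either stored as glycogen or broken down to pyruvate. Lactate dehydrogenase links pyruvate to lactate, which crosses the cell membrane through Slc16a carriers. Pyruvate reaches the mitochondrial matrix through the mitochondrial pyruvate carrier, and the pyruvate dehydrogenase complex turns it into acetyl-CoA. Kinases (Pdk) switch that complex off and phosphatases (Pdp) switch it back on. Many steps have a form typical of striated muscle and other forms found in most tissues.

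After doxorubicin most of these transcripts were at slightly lower levels. Of the 33 members that could be tested, 25 lay below control and 8 above, where 47.9% of all symbols lay below and 52.1% above, with a median log2 fold change of -0.23 beside 0.02 for all 9205 symbols tested. The glucose transporter Slc2a1 was the member with the largest difference upwards, 1.73 times the control level, while Pgam2 and Eno3, the muscle forms of phosphoglycerate mutase and enolase, stood at 0.602 and 0.609 times control. All 7 tested members of pyruvate entry lay below control. None of the 33 passed the adjusted threshold.

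With edgeR's quasi-likelihood test and Benjamini-Hochberg adjustment over all symbols, 0 of the 33 members had an adjusted p under 0.05, against 0.0543% of all symbols tested (0.0217% higher and 0.0326% lower). At an unadjusted p under 0.05 there were 8 members, 24.2%, against 8.1% of all symbols. Of these 8, 2 were higher, where all symbols gave 4%, and 6 lower, where they gave 4.11%. At an unadjusted p under 0.01 there was 1 higher member, Slc2a1, against 1.3% of all symbols, and 2 lower, Pgam2 and Eno3, against 1.16%, so 3 in all against 2.47%. At the adjusted and the unadjusted 0.05 thresholds, limma voom gave 0 and 8 members, where all symbols gave 0 and 8.04%. DESeq2, which took in 39 members, gave 0 and 9. There 75 of 13050 symbols passed the adjusted threshold and 5.54% the unadjusted one. All 3 doxorubicin values lay on one side of all 3 control values for 11 members, 33.3%, against 13.4% of all symbols, and 10 of the 11 were lower (7.06% of all symbols) and 1 higher (6.39%). No single difference in the list is therefore established by the adjusted test, and the values below are given with their own spread. The standard error of a member's log2 fold change ran from 0.17 to 0.41, with a median of 0.20.

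**Figure D1:**
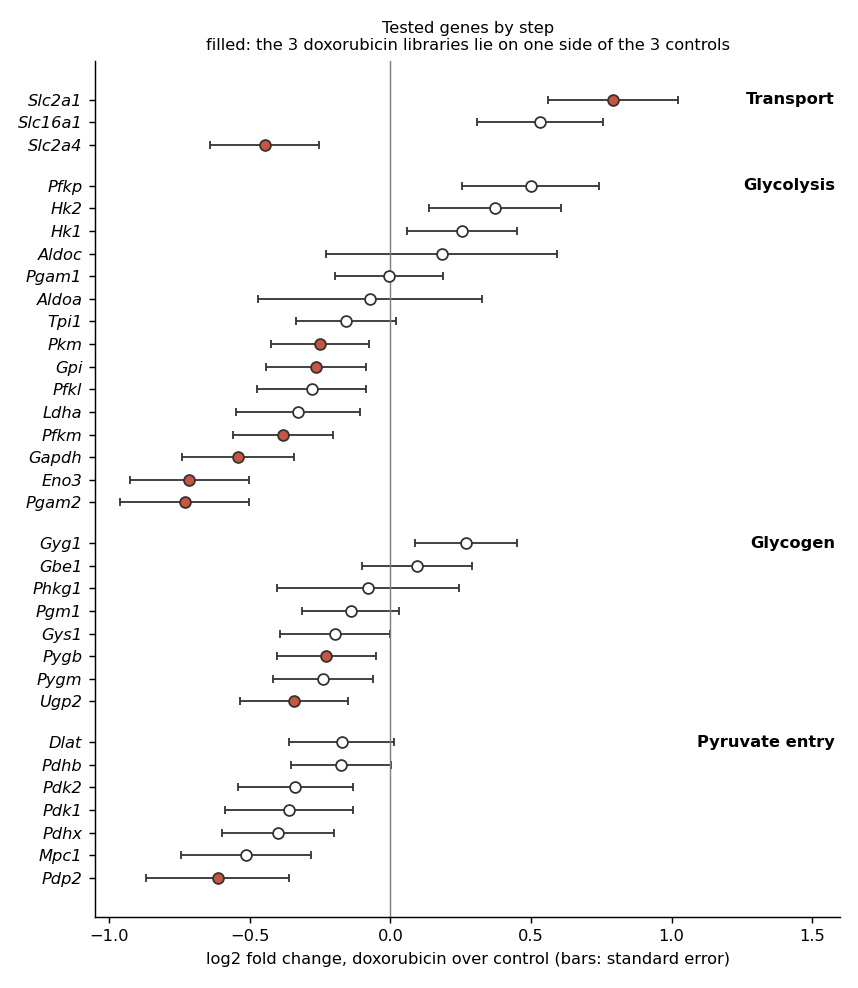
Log2 fold change of doxorubicin over control (horizontal axis, bars are standard errors) for the 33 tested genes, grouped by step. Filled points mark the 11 genes whose doxorubicin libraries lie on one side of all controls, and the 7 pyruvate entry genes all lie left of 0.

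The libraries held 2219685 to 3508282 counts. Levels are given as CPM, counts scaled to a common library size with factors from the trimmed mean of M-values (TMM), with the group mean ± SD over 3 animals. The table has no transcript lengths, so levels are compared between libraries for a gene and not between genes. Control library 1 stood apart on the first principal component (-43.3, the others from -4.83 to 26.6). It held 429 counts of Myl7, an atrial myosin light chain gene, against 7 to 20 in the other libraries, and its summed erythroid marker level was 7434 CPM against 701 to 2735. It was also the highest of all 6 libraries for 18 of the 33 members. Of 12 listed cardiomyocyte markers 11 were in the table, and their sum was 139735 to 164081 CPM in control and 114504 to 130266 CPM in doxorubicin libraries. The single markers differed, with log2 fold changes from -1.62 (Ryr2) to 0.17 (Pln). Myh6 was at -0.73, Mb at -0.59, Tnni3 at -0.45, Myl3 at -0.39 and Actn2 at -0.21. Closer to control were Actc1 at -0.14, Tnnt2 at -0.11, Tnnc1 at -0.049 and Myl2 at -0.017, and Pln alone lay above it. Ryr2 passed the adjusted threshold (edgeR adjusted p 0.0440). The sum of 11 macrophage markers was 270 to 286 CPM in control and 325 to 536 CPM in doxorubicin libraries. Lyz2 made up much of it, with group means of 97.3 and 172 CPM. The groups were apart for Lyz2 and Mrc1 and overlapped for the other macrophage markers, of which Adgre1 had a log2 fold change of -0.15. Fibroblast, endothelial and smooth muscle marker sums overlapped between the groups, at 2356 to 3923, 1678 to 2408 and 420 to 644 CPM, and adipocyte and Schwann cell or neuron markers summed to 6.25 to 20.9 CPM per library. Of the atrial sum, doxorubicin library 1 had 3304 CPM and the others 217 to 937 CPM. In doxorubicin library 1, 3252 CPM of that sum came from the gene Nppa. Myl7 had 6.42 CPM there, against 164 CPM in control library 1, and the atrial gene Sln had 1.93 against 22.9 CPM. The part of any of these in the results below was not tested. In bulk tissue, fewer cells of a type and less RNA per cell cannot be told apart.

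Some genes of central steps could not be read from this table. The X-linked members Pgk1 (phosphoglycerate kinase), Pdha1 (the alpha subunit of pyruvate dehydrogenase), Phka1 (a phosphorylase kinase subunit) and Pfkfb1 were listed at 0 in all 6 libraries. So were nearly all other X-linked symbols: 553 of the 555 placed on chromosome X had no count in any library, against 16.3% of autosomal symbols. Members that stood on 2 or more rows of the table were also low. Ldhb, the heart form of lactate dehydrogenase, stood on 3 rows with a single count in all, and Eno1 stood on 2 rows with 0 to 2 counts per library. Pfkfb2 had 1 to 7 counts, Mpc2 had 1 to 10 and Pdp1 had 0 to 4. Aldoa, the muscle aldolase, had 13 to 31 counts over 3 rows and passed the filter, but its level is uncertain. Of autosomal symbols on 2 or more rows, 46.8% had no count, against 15.1% of those on 1 row. These values describe the deposited table and not expression in the heart, and the cause was not tested. Together with Slc16a3, a lactate carrier with 6 to 12 counts per library, these genes are the 10 members below the filter on low counts, Aldoa apart.

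**Figure D2:**
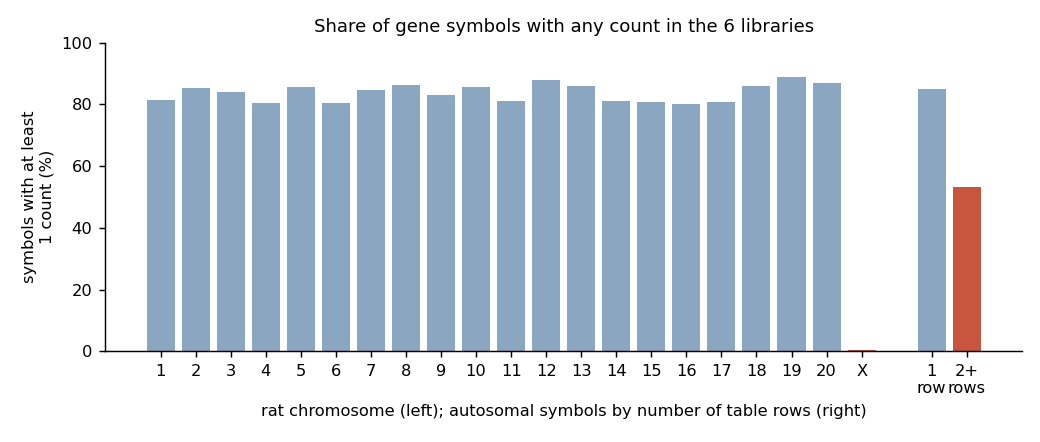
Percent of gene symbols with at least 1 count in the 6 libraries (vertical axis), for each rat chromosome and, at the right, for autosomal symbols on 1 row or on 2 or more rows of the table. The bar of chromosome X is close to 0, from 2 of 555 symbols, and symbols on several rows stand lower than those on 1 row.

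Sequences just upstream of the genes are shown for 5 of the 8 members with an unadjusted p under 0.05, Slc2a1 and Slc16a1 above control and Gapdh, Pgam2 and Eno3 below it, to compare genes that stood higher with genes that stood lower. Of the others, all below control, Slc2a4 and Pdp2 had no matched promoter, and Mpc1 had one that is not printed. Each runs from 250 bases before to 50 bases after the annotated start and is printed 5′ to 3′ on the gene's strand, from RefSeq on the assembly GRCr8: Slc2a1 at chr5:138002272-138002571 on the forward strand, Slc16a1 at chr2:194812410-194812709 on the forward strand, Gapdh at chr4:159652418-159652717 on the reverse strand, Pgam2 at chr14:84897825-84898124 on the reverse strand, Eno3 at chr10:55868936-55869235 on the forward strand. Capitals mark the core of the hypoxia response element, ACGTG on either strand, and the palindromic E-box CACGTG, which contains it.
Slc2a1: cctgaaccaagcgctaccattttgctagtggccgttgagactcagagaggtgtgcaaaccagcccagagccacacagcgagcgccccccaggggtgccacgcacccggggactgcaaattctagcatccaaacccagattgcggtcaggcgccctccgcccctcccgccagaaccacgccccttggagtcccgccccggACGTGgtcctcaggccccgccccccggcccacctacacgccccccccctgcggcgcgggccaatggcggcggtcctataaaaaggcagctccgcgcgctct
Slc16a1: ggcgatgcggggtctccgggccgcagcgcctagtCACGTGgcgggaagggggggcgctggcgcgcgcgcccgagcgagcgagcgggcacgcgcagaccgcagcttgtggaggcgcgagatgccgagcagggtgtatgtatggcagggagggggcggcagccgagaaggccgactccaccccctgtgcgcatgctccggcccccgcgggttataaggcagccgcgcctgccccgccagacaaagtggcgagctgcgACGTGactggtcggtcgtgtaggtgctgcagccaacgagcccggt
Gapdh: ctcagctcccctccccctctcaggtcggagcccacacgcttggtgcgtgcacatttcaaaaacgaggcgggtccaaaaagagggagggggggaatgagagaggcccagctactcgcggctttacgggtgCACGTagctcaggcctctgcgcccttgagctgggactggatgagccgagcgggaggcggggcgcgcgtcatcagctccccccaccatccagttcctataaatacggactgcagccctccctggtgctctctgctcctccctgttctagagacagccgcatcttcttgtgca
Pgam2: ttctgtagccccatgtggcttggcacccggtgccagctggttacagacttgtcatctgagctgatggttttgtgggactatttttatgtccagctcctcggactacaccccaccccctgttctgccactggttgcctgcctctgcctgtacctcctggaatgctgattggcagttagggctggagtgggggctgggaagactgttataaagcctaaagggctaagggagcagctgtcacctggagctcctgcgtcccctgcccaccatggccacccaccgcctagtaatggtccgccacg
Eno3: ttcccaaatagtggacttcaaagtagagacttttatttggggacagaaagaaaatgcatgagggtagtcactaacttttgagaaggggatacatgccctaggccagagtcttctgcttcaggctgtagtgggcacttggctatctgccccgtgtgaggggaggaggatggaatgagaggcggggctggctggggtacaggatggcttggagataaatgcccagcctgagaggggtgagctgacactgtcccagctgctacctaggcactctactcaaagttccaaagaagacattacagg

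The promoter table matched 39 of the 43 members, and Slc2a4, Pdp2, Pgk1 and Pdp1 were not matched. ACGTG was present in 58.1% of the 31 tested members with a promoter, against 26.5% of the promoters of all tested symbols that matched and 19.3% of all 33469 promoters. CACGTG was in 16.1% of the same 31, against 9.63% of those of all tested symbols. No window of a member held an exact match to the MEF2 consensus searched, which 1.52% of the tested symbols' promoters had. Stretches that differ from it by a single base were not counted. The windows of Slc2a1 (ctataaaaag), Gapdh (ctataaatac) and Pgam2 (ctatttttat) each hold such a stretch, so these are found in genes that stood higher and lower. ACGTG was in 13 of 23 members that lay below control and in 5 of 8 above it. In the sequences printed, Slc2a1 and Gapdh each hold 1 match, at -51 and -121 from the start, Slc16a1 holds a palindrome and a further match, and Pgam2 and Eno3 hold none. The Mpc1 window, not printed, holds none either. A match is a string of letters and not a binding site, and these counts were not tested.

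Among the transporters, the main carriers of glucose lay in opposite directions. Slc2a1, the carrier that works without insulin and is typical of the fetal heart and of non-muscle cells, had 22.5, 20.9 and 23.6 CPM in control libraries 1, 2 and 3 and 40.8, 45.6 and 30.1 CPM in doxorubicin libraries 1, 2 and 3. Every doxorubicin library was higher than every control. The means were 22.3 ± 1.36 and 38.8 ± 7.93 CPM (SD, n = 3), and the log2 fold change was 0.79 (SE 0.23), with an edgeR unadjusted p of 0.00413 and an adjusted p of 0.288. Those values rest on 47 to 146 counts per library.

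Slc2a4, the insulin-responsive carrier of muscle and fat, had 962, 635 and 722 CPM in control libraries and 540, 543 and 618 CPM in doxorubicin libraries. All doxorubicin values lay under all controls, by a narrow margin. Its log2 fold change was -0.45 (SE 0.20, edgeR adjusted p 0.578), and without control library 1, the highest, it was -0.25. The Slc2a1 share of Slc2a1 and Slc2a4 counts was 2.29%, 3.18% and 3.16% in control libraries and 7.02%, 7.74% and 4.64% in doxorubicin libraries. The groups did not overlap, and the nearest values, 3.18% (Wilson 95% interval 2.40 to 4.21) and 4.64% (3.84 to 5.60), had intervals that met. Wilson intervals cover counting error only.

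Slc16a1, the main lactate and pyruvate carrier of heart muscle, had 379, 401 and 311 CPM in control libraries and 546, 359 and 671 CPM in doxorubicin libraries. Doxorubicin libraries 1 and 3 were above all controls, and library 2 lay within them. The log2 fold change was 0.53 (SE 0.22, edgeR adjusted p 0.554), and 0.33 without doxorubicin library 3, the highest. Slc16a3, the lactate carrier of glycolytic cells, had 12, 8 and 7 counts in the controls. In the treated libraries it had 9, 9 and 6, and no difference was detectable at this depth.

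**Figure D3:**
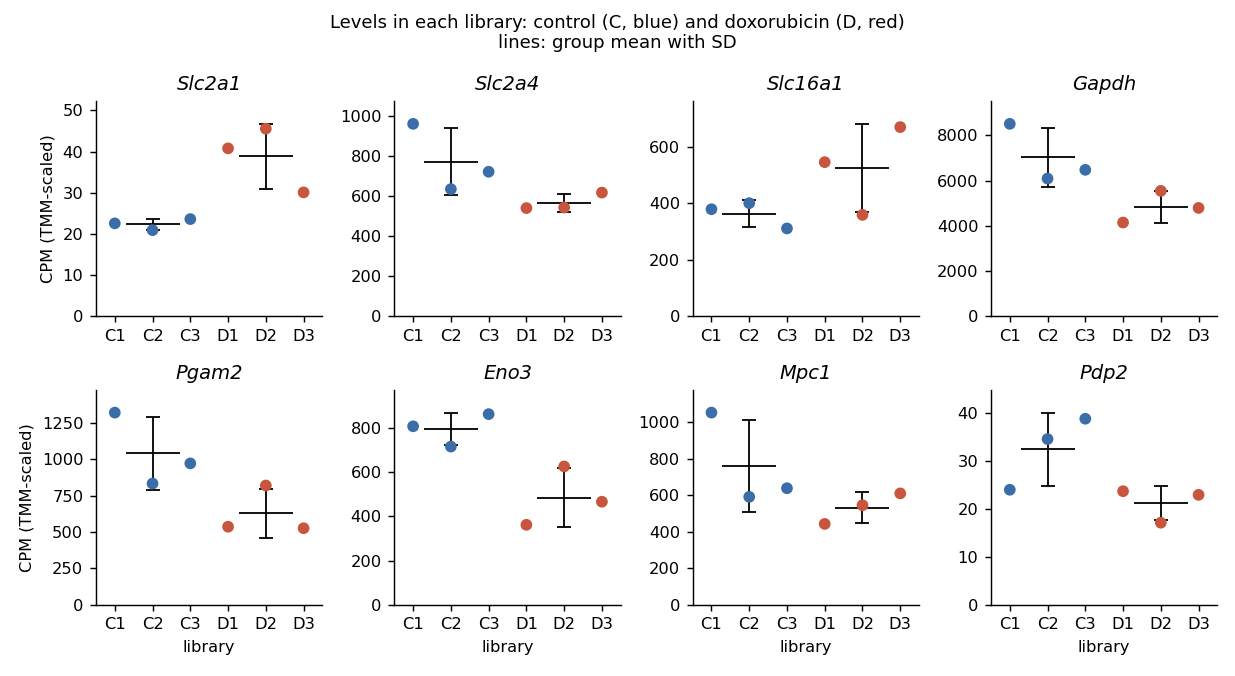
TMM-scaled CPM (vertical axis, from 0) in each control library (C, blue) and doxorubicin library (D, red) for the 8 genes with an unadjusted p under 0.05, with the group mean and SD. The groups are apart for Slc2a1, Slc2a4, Gapdh, Pgam2, Eno3 and Pdp2, and they overlap for Slc16a1 and Mpc1.

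At the entry to glycolysis, the hexokinases lay above control without passing the test. Hk1, the form found in most tissues, had a control mean of 350 ± 65.0 CPM and a doxorubicin mean of 417 ± 63.7 CPM (SD, n = 3), and its log2 fold change was 0.25 (SE 0.20). It was 0.42 without control library 1, 0.17 without control library 3, 0.13 without doxorubicin library 1 and 0.12 with a correction for gene length described below. For Hk2, the insulin-regulated form of muscle, the value was 0.37 (SE 0.23), with 0.16 without control library 1 and 0.62 without control library 2. The Hk1 share of their counts was 77.0% to 89.8% in control and 80.6% to 82.5% in doxorubicin libraries, so the groups overlapped. Gpi, which turns glucose 6-phosphate into fructose 6-phosphate, had 1125, 901 and 928 CPM in control and 778, 861 and 818 CPM in doxorubicin libraries. Its groups did not overlap, and the log2 fold change was -0.27 (SE 0.18), or -0.15 without control library 1.

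Phosphofructokinase commits sugar to glycolysis, and its 3 genes did not lie in the same direction. Pfkm, the muscle form, had 1267, 1036 and 1127 CPM in control libraries and 855, 965 and 815 CPM in doxorubicin libraries. All doxorubicin values were below all controls, and the log2 fold change was -0.38 (SE 0.18, edgeR unadjusted p 0.0507). On the same scale Pfkl, the liver form, stood at -0.28 (SE 0.19) and Pfkp, the platelet form, at 0.50 (SE 0.24), each with overlapping groups. Without control library 1 Pfkl was at -0.15 and Pfkp at 0.30. The Pfkm share of the counts of the 3 genes was 88.0% to 89.9% in control and 85.1% to 88.1% in doxorubicin libraries. These ranges overlapped.

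Pgam2 and Eno3, the members furthest below control, act in the lower part of glycolysis, after the sugar is split, as does Gapdh. Gapdh, which oxidizes glyceraldehyde 3-phosphate and is often used as a reference transcript, had 8514, 6092 and 6477 CPM in control libraries and 4143, 5545 and 4789 CPM in doxorubicin libraries. Every doxorubicin library was under every control. The means were 7028 ± 1302 and 4826 ± 702 CPM (SD, n = 3), and the log2 fold change was -0.54 (SE 0.20, edgeR adjusted p 0.458). Without control library 1 it was -0.38. GRCr8 lists 81 Gapdh pseudogenes, and how reads shared with such copies were counted was not stated.

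Pgam2, the muscle form of phosphoglycerate mutase, had 1319, 832 and 970 CPM in control libraries. The doxorubicin libraries had 536, 819 and 526 CPM. Doxorubicin library 2 lay just under the lowest control, and the other doxorubicin libraries lay well below it. The log2 fold change was -0.73 (SE 0.23), with an edgeR unadjusted p of 0.00653 and an adjusted p of 0.360. Pgam1, the form of most tissues, had means of 331 ± 61.1 CPM (control) and 329 ± 38.9 CPM (doxorubicin, SD, n = 3). Its log2 fold change was -0.0053 (SE 0.19), and it was 0.13 without control library 1. Its share of the counts of both forms was 22.6%, 29.1% and 21.5% in control libraries and 36.9%, 31.3% and 36.5% in doxorubicin libraries. The share was higher in each doxorubicin library, by 10.5 percentage points on average, and by 9.03 to 12.8 points when any 1 library was left out. GRCr8 lists 13 Pgam1 pseudogenes.

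Eno3, the muscle enolase, had 808, 716 and 863 CPM in control libraries and 362, 626 and 467 CPM in doxorubicin libraries. The groups did not overlap, and the log2 fold change was -0.71 (SE 0.21), with an edgeR unadjusted p of 0.00451 and an adjusted p of 0.304. Unlike Gapdh and Pgam2, control library 1 was not its highest control, and the log2 fold change was -0.70 without it. The gene overlaps Spag7 in GRCr8, and whether counting used strand was not stated. Of 10 listed skeletal muscle markers, 8 had any count, and their sum was 2.67 to 9.98 CPM per library.

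Pkm, pyruvate kinase, had 1332, 1200 and 1123 CPM in control libraries and 1067, 1040 and 967 CPM in doxorubicin libraries. The groups did not overlap, but the difference was small, with a log2 fold change of -0.25 (SE 0.17). Ldha, the muscle form of lactate dehydrogenase, had 1773, 1725 and 1536 CPM in control and 1818, 1192 and 1002 CPM in doxorubicin libraries. Doxorubicin library 1 was the highest of all and libraries 2 and 3 the lowest, so the groups overlapped. Ldha stood at a log2 fold change of -0.33 (SE 0.22), at -0.61 without doxorubicin library 1 and at -0.15 without doxorubicin library 3. The log2 fold change of Tpi1, triose phosphate isomerase, was -0.16 (SE 0.18), and that of Aldoc, the brain aldolase, 0.18 (SE 0.41). Aldoc rested on 12 to 24 counts per library. In all, 11 of the 15 tested glycolysis members were below control, where 47.9% of all symbols were. Of the 15, 3 were lower with an unadjusted p under 0.05, 20% against 4.11% of all symbols. The median log2 fold change was -0.25.

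**Figure D4:**
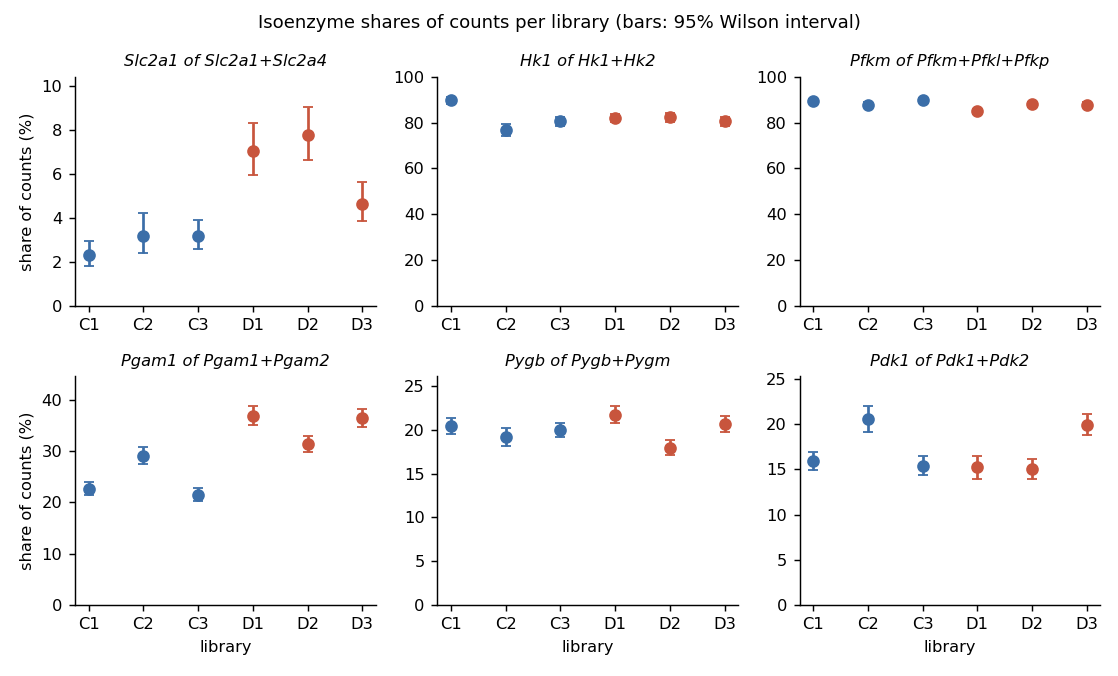
Share of counts taken by a form of an enzyme or carrier (vertical axis, percent, from 0) in each control (C, blue) and doxorubicin (D, red) library, with 95% Wilson intervals. The groups are apart for Slc2a1 (2.29% to 3.18% against 4.64% to 7.74%) and Pgam1 (21.5% to 29.1% against 31.3% to 36.9%) and overlap in the other 4 panels.

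The glycogen genes differed little between the groups. Of 8 tested members, 6 lay below control and 2 above, where 47.9% of all symbols lay below. The median log2 fold change was -0.17, and 0 members had an unadjusted p under 0.05, where 8.1% of all symbols did. In 2 members, 25%, the groups did not overlap and doxorubicin was lower, against 7.06% of all symbols. Pygm, the muscle phosphorylase that releases glucose 1-phosphate, had 2378, 2020 and 2163 CPM in control libraries and 1716, 2064 and 1780 CPM in doxorubicin libraries. Doxorubicin library 2 was within the controls. Pygb, the brain phosphorylase that the heart also expresses, had 611, 480 and 541 CPM in control and 477, 453 and 465 CPM in doxorubicin libraries. Its groups did not overlap, by a margin of a few CPM, and the log2 fold change was -0.23 (SE 0.17), or -0.13 without control library 1. The Pygb share of both phosphorylases was 19.2% to 20.5% in control and 18.0% to 21.7% in doxorubicin libraries.

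Ugp2, which makes the UDP-glucose used for glycogen, had 378, 413 and 428 CPM in control and 249, 348 and 365 CPM in doxorubicin libraries. All doxorubicin values were lower, with a log2 fold change of -0.34 (SE 0.19, edgeR adjusted p 0.680), and -0.18 without doxorubicin library 1, the lowest. Glycogen synthase, Gys1, had a log2 fold change of -0.20 (SE 0.19), which was -0.011 without control library 1. Phosphoglucomutase, Pgm1, was at -0.14 (SE 0.17) on the same scale. The starter protein glycogenin, Gyg1, was at 0.27 (SE 0.18) and the branching enzyme, Gbe1, at 0.094 (SE 0.20). Phkg1, the muscle catalytic subunit of phosphorylase kinase, was at -0.079 (SE 0.32) and overlaps Sumf2 in GRCr8.

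In pyruvate entry, the 7 tested members all had a negative log2 fold change, from -0.61 to -0.17 with a median of -0.36, and 2 had an unadjusted p under 0.05. Of all symbols tested, 47.9% lay below control, and 4.11% were lower with such a p. Mpc1, a subunit of the mitochondrial pyruvate carrier, had 1052, 591 and 638 CPM in control libraries and 443, 545 and 610 CPM in doxorubicin libraries. Doxorubicin library 3 lay above the lowest control. The log2 fold change was -0.51 (SE 0.23, edgeR adjusted p 0.594), and it was -0.20 without control library 1.

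The structural subunits of the pyruvate dehydrogenase complex lay below control with overlapping groups. Pdhb, the beta subunit of its first enzyme, had 843, 797 and 759 CPM in control and 810, 684 and 629 CPM in doxorubicin libraries, which overlapped. Its log2 fold change was -0.18 (SE 0.18), -0.28 without doxorubicin library 1 and -0.088 without doxorubicin library 3. Dlat, the acetyltransferase core, was at -0.17 (SE 0.19), and at -0.035 without control library 2, and Pdhx, the protein that anchors the dihydrolipoamide dehydrogenase, at -0.40 (SE 0.20, edgeR unadjusted p 0.0628) and at -0.26 without control library 2. Dld, that dehydrogenase, is no member of the list, and stood at -0.023 (SE 0.23).

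Both the kinases that switch the complex off and a phosphatase that switches it on lay below control. Pdk2 had 1565, 1104 and 1171 CPM in control libraries and 819, 1129 and 1091 CPM in doxorubicin libraries, and the groups overlapped. On the log2 scale the fold change of Pdk2 was -0.34 (SE 0.20), -0.16 without control library 1 and -0.20 without doxorubicin library 1. That of Pdk1 was -0.36 (SE 0.23), -0.16 without doxorubicin library 1 and -0.60 without doxorubicin library 3. The phosphatase gene Pdp2 had 24.1, 34.7 and 38.9 CPM in control and 23.8, 17.2 and 23.0 CPM in doxorubicin libraries. Its groups were barely apart, at 24.1 CPM in control library 1 and 23.8 CPM in doxorubicin library 1, with a log2 fold change of -0.61 (SE 0.25, edgeR adjusted p 0.544) on 55 to 137 counts. Without control library 1 it was -0.78. The Pdk1 share of Pdk1 and Pdk2 counts averaged 17.3% ± 2.84 for the controls and 16.7% ± 2.78 after doxorubicin (SD, n = 3), with overlap.

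A further kinase of the complex, Pdk4, which fasting and fatty acids are known to raise, is no member but had the smallest p of the pathway. It had 133, 119 and 260 CPM in control libraries and 37.2, 60.2 and 67.2 CPM in doxorubicin libraries, without overlap. The log2 fold change was -1.64 (SE 0.30, edgeR adjusted p 0.0791), and DESeq2 gave an adjusted p of 6.60e-05. Without control library 3, its highest control, the log2 fold change was -1.20.

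The size of the lower values depended in part on control library 1, as the plot of fold changes with and without it shows. Leaving it out moved the median log2 fold change from -0.23 to -0.15 over the list, from -0.25 to -0.15 in glycolysis and from -0.36 to -0.22 in pyruvate entry. The count below control was then 24 of 33, where 46.8% of all symbols lay below, and 7 members had an unadjusted p under 0.05, where 5.61% of all symbols did. Of these 7, 3 were higher and 4 lower, against 2 higher and 6 lower with all 6 libraries. Of members with no overlap, 10 were lower without that library, 30.3%, against 10.5% of all symbols counted the same way, and 3 were higher, against 10%. In doxorubicin libraries 1, 2 and 3, 18, 19 and 16 of the 33 members lay below all 3 controls, against 27.1%, 22.3% and 29% of all symbols. Above all 3 controls lay 7, 2 and 5 members, against 27.5%, 23% and 28.7%.

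**Figure D5:**
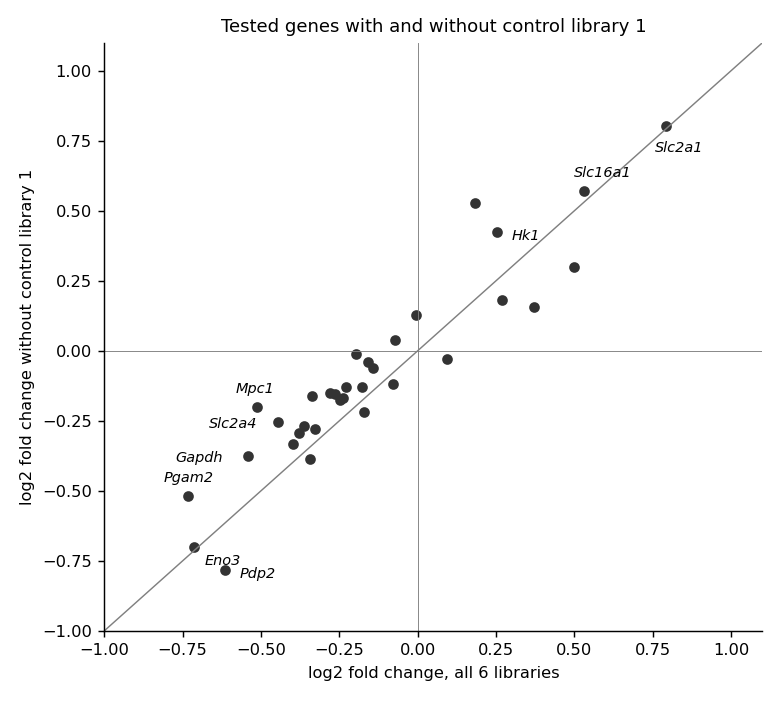
Log2 fold change of the 33 tested genes with all 6 libraries (horizontal axis) and without control library 1 (vertical axis), with the line of equal values. Most genes below 0 lie above the line, nearer to 0, as Mpc1 (-0.51 and -0.20) does, while Eno3 (-0.71 and -0.70) and Slc2a1 (0.79 and 0.80) stay on it.

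Across all symbols, genes that span more of the chromosome had higher fold changes (Spearman's rho 0.218 across 8984 genes, which are not independent replicates). Glycolytic genes include short ones, so each member was refitted with a correction for gene length. The log2 fold changes were then 0.74 for Slc2a1, -0.67 for Eno3, -0.63 for Pgam2, -0.47 for Gapdh and -0.46 for Pfkm. With the correction, 25 of the 33 members lay below control, where 51.3% of all symbols did, and 10 had an unadjusted p under 0.05, where 9% did.

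Other listed genes of the same steps were read from the same fit. Of 5 tested further transport genes, 9 listed, 0 had an unadjusted p under 0.05, where 8.1% of all symbols did. Slc16a13, a carrier of the same family, had 9 to 46 counts per library and a log2 fold change of 0.90 (SE 0.47). Bsg, the chaperone of lactate carriers, had 14 to 36 counts over 2 rows and stood at 0.32 (SE 0.40). Of 10 tested further glycolysis genes, 1 was higher and 1 lower at that threshold, against 4% and 4.11% of all symbols. Eno2, the neuronal enolase, had 10.8 to 12.9 CPM in control and 18.7 to 23.1 CPM in doxorubicin libraries, a log2 fold change of 0.79 (SE 0.26, edgeR adjusted p 0.397). Its direction was opposite to that of the muscle form Eno3. Ldhd, the mitochondrial D-lactate dehydrogenase, had 159 to 204 CPM in control and 114 to 127 CPM in doxorubicin libraries, a log2 fold change of -0.57 (SE 0.18, edgeR adjusted p 0.353).

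Of 16 tested further glycogen genes, 0 had an unadjusted p under 0.05, where 8.1% of all symbols did. Of the glycogen-targeting phosphatase subunits, Ppp1r3b stood at 0.46 (SE 0.26) and Ppp1r3c at -0.33 (SE 0.21) on the log2 scale. Among 8 tested further pyruvate genes, 4 were lower and 0 higher at an unadjusted p under 0.05, where 4.11% and 4% of all symbols were, and in all 4 the groups did not overlap, where 7.06% of all symbols were lower without overlap. Beside Pdk4 these were the malic enzymes Me1 (log2 fold change -0.42) and Me3 (-0.38) and the alanine transaminase Gpt (-0.42), with edgeR adjusted p of 0.592, 0.585 and 0.594.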

How the data were processed

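RNA was measured in 6 rat hearts, 3 control and 3 doxorubicin, grouped by the sample labels. The authors deposited 1 table of raw read counts per row with a gene symbol. FastQC, Trimmomatic, STAR, HTSeq and the build mRatBN7.2 are named in the submitters' processing notes. Versions, annotation, counting mode and use of strand are not given in the sources used here. Rows were summed per symbol, so reads shared by rows or gene copies may be missing. The members, lists and motifs were chosen with earlier results of these data known.

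Testing used glmQLFit and glmQLFTest of edgeR 4.0.16 in R 4.3.3 (TMM, robust, treatment as the only term) after filterByExpr (minimum count 10, minimum total 15), which kept 9205 symbols. It was checked on simulated data. Adjusted p-values are Benjamini-Hochberg over all of them, with a threshold of 0.05. The standard error is the absolute log2 fold change over the square root of F. The lowest level read as detected was 3 counts, 0.855 to 1.35 CPM. Values per library are printed for members with an unadjusted p under 0.05, with groups that do not overlap, or with the 2 highest mean CPM of a step. Other pathway genes are named at an unadjusted p under 0.01 or as the 2 smallest p of their list; Dld, Me1 and Gpt were named after their values were seen. Gene lengths, chromosomes and promoters came from RefSeq on GRCr8, matched by symbol.

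Alternatives were median-of-ratios factors, library size only, no filter, a mean CPM of at least 5, DESeq2 1.42.0, limma 3.58.1 voom, the row with the most counts of each symbol, a replicate block, a gene length correction, both together, and leaving out each library. Counts of members without overlap on leaving out libraries, and medians over the same genes in each setting, were added after seeing the data.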

Additional observations from a re-analysis of the deposited data

How the results depend on the processing

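The count of members past the adjusted threshold was 0 in all 16 alternatives, where from 0 to 75 of all symbols passed it. The 8 members with an unadjusted p under 0.05 (2 higher, 6 lower) became 5 (3 lower) with library size only, 5 (1 higher) with the replicate block, 5 (1 higher) with the block and the gene length correction, and 5 to 10 (1 to 4 higher, 3 to 7 lower) on leaving out 1 library. They were 5 without doxorubicin library 1 and 5 without doxorubicin library 2. Among all symbols tested, 7.75% had such a p with library size only and 6.59% with the block, against 8.1% in the main test. The share was 7.18% with the block and the gene length correction. On leaving out 1 library it ran from 5.61% to 9.53%, with 6.69% without doxorubicin library 1 and 9.53% without doxorubicin library 2. Members whose groups do not overlap numbered 13 to 18, against 11, on leaving out 1 library, 18 without control library 2, where 13.8% of all symbols were lower and 12.5% higher without overlap. The list's median log2 fold change of -0.23 was -0.14 with library size only, which put the median of all symbols at 0.10, and -0.26 to -0.15 on leaving out a library. By step, leaving out a library gave -0.31 to -0.15 in glycolysis and -0.46 to -0.22 in pyruvate entry. The transport median of 0.53 rests on 3 genes. It was 0.0644 with no filter and 0.0546 with DESeq2, and -0.0328 to 0.62 on leaving out a library, -0.0328 without control library 3. Slc16a3 passed the filter and entered the median in the first 2 of these and on leaving out control library 3 or any doxorubicin library. Over the same 3 genes the median was 0.54 and 0.53, and 0.33 to 0.67 on leaving out a library.

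Log2 changes near 0 reversed. With library size only, Aldoa was 0.020, Pgam1 0.088 and Phkg1 0.0083. Pgam1 was 0.0078 at a mean CPM of at least 5, 0.0055 with voom, 0.0048 with the replicate block, 0.039 with the gene length correction and 0.049 with that and the block, where Gbe1 was -0.041 and -0.042. On leaving out 1 library Aldoa ran from -0.37 to 0.17, Aldoc from -0.076 to 0.53, Pgam1 from -0.14 to 0.13, Gbe1 from -0.028 to 0.22, Phkg1 from -0.34 to 0.20 and Bsg from -0.045 to 0.53. Pdk4 passed the adjusted threshold with no filter (0.0252), DESeq2, the replicate block (0.0181) and the block with the length correction (0.00851), and its adjusted p was at most 0.373 over all alternatives. The cause of these changes was not tested. The labels do not say whether replicate numbers pair the animals. The deviations of same-numbered libraries correlated at -0.19 to 0.021, and 1 of 6 libraries correlated best with its own number. With 3 libraries in a group, these values cannot decide whether same-numbered libraries share a batch. Depth limits Slc16a3, Aldoc and Phkg1.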

Other observations

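The side branches of glucose metabolism and its regulators were read from the same fit and were not part of the 43 genes. In the hexosamine branch, which turns fructose 6-phosphate into UDP-N-acetylglucosamine, the rate-limiting enzyme gene Gfpt2 had 9.55, 8.44 and 16.2 CPM in control libraries and 27.0, 17.8 and 25.6 CPM in doxorubicin libraries. Every doxorubicin library was above every control. The log2 fold change was 1.01 (SE 0.31), with an edgeR unadjusted p of 0.00556 and an adjusted p of 0.339, on 19 to 87 counts. Its paralog Gfpt1, named after its values were seen like the pentose genes below, was at 0.66 (SE 0.37), and Uap1, which makes the final UDP-sugar, at 0.64 (SE 0.27), both with overlapping groups. Uap1 was at 0.41 without control library 1 and at 0.37 without doxorubicin library 1. The tested pentose phosphate enzymes included Pgls, Taldo1, Pgd and Tkt, with log2 fold changes of -0.39 (SE 0.25) for Pgls, -0.33 (SE 0.18) for Taldo1, -0.16 (SE 0.18) for Pgd and -0.010 (SE 0.20) for Tkt. Of 13 tested branch genes, 2 had an unadjusted p under 0.05, 15.4% against 8.1% of all symbols, and 0 passed the adjusted threshold.

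Of 25 tested regulators of glucose use, 19 lay above control, 76% of the list against 52.1% of all symbols, and 3 had an unadjusted p under 0.05, 12% against 8.1%. Insr, the insulin receptor, had 17.6, 22.7 and 23.3 CPM in control and 27.9, 27.5 and 40.4 CPM in doxorubicin libraries, without overlap, a log2 fold change of 0.59 (SE 0.25, edgeR adjusted p 0.550). Pik3r1, the regulatory subunit of phosphoinositide kinase, was at 0.81 (SE 0.36) and Esrrg, a nuclear receptor of oxidative genes named after its values were seen, at 0.73 (SE 0.33). Both were highest in doxorubicin library 3, and without it Pik3r1 was at 0.39. Without control library 1 Pik3r1 was at 0.50. These are long genes, and with the gene length correction Insr was at 0.47 and Pik3r1 at 0.71. Esrra, of the same receptor family as Esrrg and also named after its values were seen, lay the other way. It was at -0.38 (SE 0.20), with overlapping groups. Hif1a, the hypoxia factor, was at 0.070 (SE 0.18), and Txnip, which limits glucose uptake, at 0.095 (SE 0.20), both also chosen after their values were seen.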
